A study of Mus musculus with 16 samples.

Results

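Striated muscle is the main source of hsa-miR-206, hsa-miR-133a-3p, hsa-miR-133b and hsa-miR-1-3p, which were examined here in medium conditioned by HCT116, an established human line from a colorectal carcinoma. They were taken by name from the array design, which carries 1205 human miRNAs, and all 4 had probes. Of the 4, 3 entered the 283 human miRNAs that were bright enough to test, and miR-1-3p did not. Cells were given an X-ray dose of 0, 2, 6 or 10 Gy (high dose rate), and the medium was taken 72 h later. Every group, the unirradiated one included, was kept in RPMI1640 with 10% fetal bovine serum. Each dose had 4 cultures, independent per the series' text (which lists 0, 6 and 10 Gy), with 1 array per culture and 16 arrays in all. The labels give the organism as mouse, but HCT116 is a human line and the array is a human design, so names are read as human, and the prefix hsa- is left out from here on. HCT116 is 1 cell line, and no array of medium without cells was used here. RNA released by the cells and RNA brought in with the serum therefore cannot be told apart, nor can fewer releasing cells and less RNA released per cell.

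These miRNAs, often called myomiRs, are made at high levels in skeletal and heart muscle and at low levels in most other tissues. miR-1 and miR-206 share a seed, the stretch near the 5′ end that pairs with target messenger RNAs, and promote muscle differentiation. miR-133a and miR-133b form a second seed family, act on muscle precursor proliferation and have nearly identical mature sequences. In vertebrate genomes the family lies in short clusters that each pair a member of the first family with a member of the second. Circulating myomiRs are used as markers of muscle injury.

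The mature sequences of miR-206 and miR-133b are shown because these neighbours in the genome gave different patterns across the arrays. They are the mouse entries of RefSeq (GRCm38.p6), the only ones of the 4 that matched by name, with the seed (bases 2 to 8) in capitals.
mmu-miR-206-3p: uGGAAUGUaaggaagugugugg
mmu-miR-133b-3p: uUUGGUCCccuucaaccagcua
In that build miR-206-3p lies at chr1:20679055-20679076 and miR-133b-3p at chr1:20682834-20682855, both on the plus strand with 3757 bases between them. Both are 22 bases long, and their seeds differ. miR-133a-3p and miR-1-3p are named only.

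The arrays were read as processed signal, the spot brightness in scanner units after background subtraction. Arrays detected 242 to 358 human miRNAs each, the local background had a median of 35 to 40 units per array, and no spot was saturated. Detection of a probe required that over 0.5 of its spots on that array were flagged well above background. The cell type was checked against 10 fixed epithelial and colorectal markers. Of these, 7 were detected on at least 1 array, miR-200c-3p and miR-141-3p on 15 arrays each, and miR-192-5p, miR-194-5p and miR-215-5p on none. The number detected per array ran from 4 to 7 at 0 Gy, 2 to 7 at 2 Gy, 0 to 5 at 6 Gy and 3 to 6 at 10 Gy. Of the 4 bright enough to test, miR-21-5p was lower than at 0 Gy by -2.79 after 2 Gy and -2.72 after 6 Gy on the log2 scale (limma adjusted p = 0.0225 and 0.0304). miR-200c-3p differed by -2.50 after 6 Gy (limma adjusted p = 0.0514). miR-21-5p was detected on 1 of 4 arrays at 2 Gy and 2 of 4 at 6 Gy, and elsewhere at these doses its level was set to a floor, given below. miR-200c-3p was at that floor on replicates 1 and 4 of 6 Gy. The size of these differences therefore depends on the floor. The 0 and 2 Gy arrays shared 1 slide and the 6 and 10 Gy arrays the other, per the file headers. The 0 and 6 Gy arrays lay in columns 1 and 2 of their slide, and the 2 and 10 Gy arrays in columns 3 and 4. Within a slide, dose and column therefore cannot be told apart.

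Detection separated miR-1-3p from the other members at every dose. miR-206 and miR-133a-3p were detected on all 16 arrays. miR-133b was detected on every array of 0 and 2 Gy, on 3 of 4 arrays of 6 Gy and on 2 of 4 of 10 Gy. miR-1-3p was detected on none. Well above background were 584 of the 606 spots used for miR-206, 586 of 620 for miR-133a-3p, 379 of 607 for miR-133b and 0 of 615 for miR-1-3p. The scanner software's own call per miRNA gave the same result for miR-206, miR-133a-3p and miR-1-3p, and called miR-133b detected on all 16 arrays.

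miR-1-3p, which shares its seed with miR-206, gave signals below 0 from both probes on every array. The first probe ran from -3.82 to -0.73 units and the second from -2.99 to -0.35 units. The array's 6 negative control probes, designed to bind no miRNA, averaged between 0.71 and 6.52 units per probe. The lowest signal of a detected probe ranged from 14.5 to 19.1 units between arrays. No fold change between doses was computed for it.

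**Figure D1:**
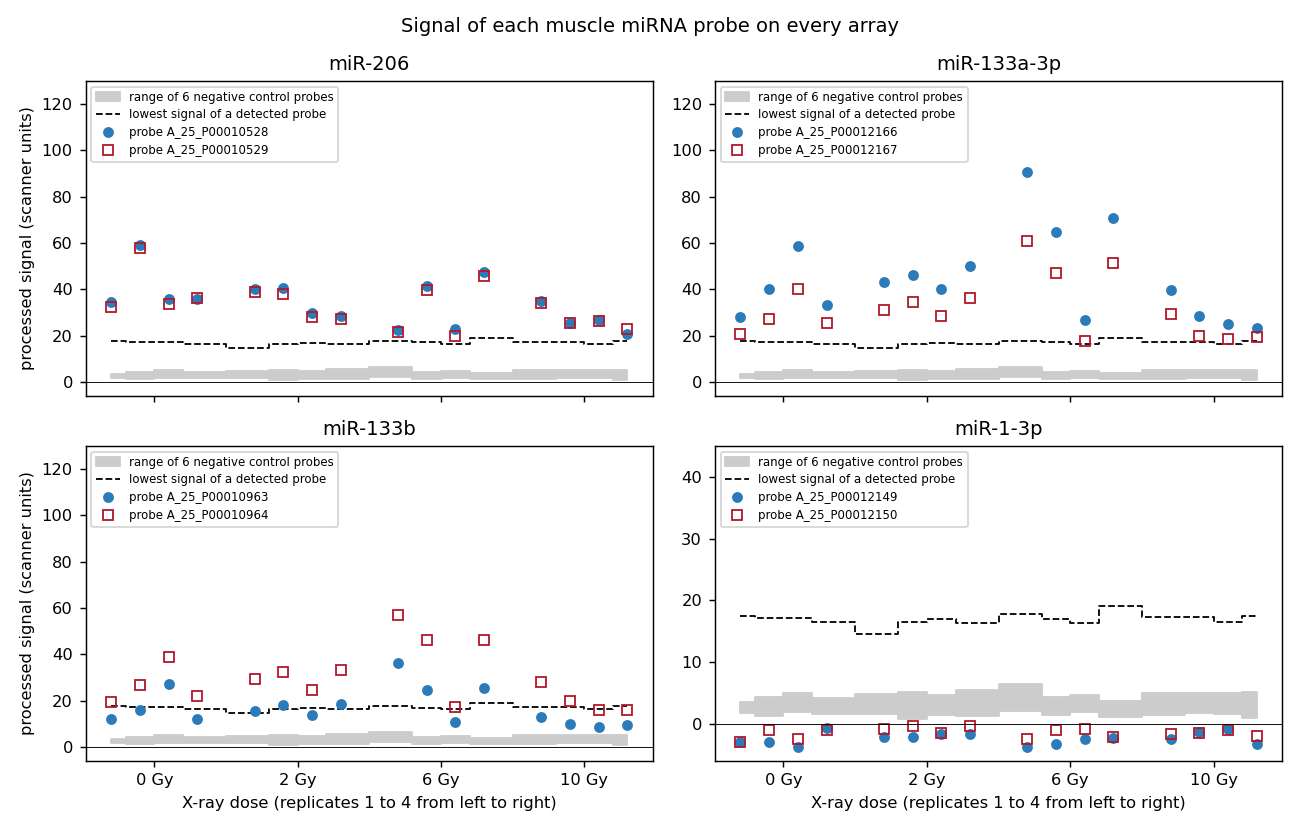
Processed signal in scanner units (vertical axis) of both probes of each muscle miRNA on the 16 arrays, ordered by dose and replicate; the grey band is the range of the 6 negative control probes and the dashed line the lowest signal of a detected probe on each array. Both miR-206 probes nearly coincide, both miR-133 names peak at 6 Gy replicate 1, and miR-1-3p stays below 0.

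miR-206 gave a dim but repeatable signal, with both probes close to each other on every array. At 0 Gy its first probe read 34.6, 59.4, 35.7 and 35.9 units on replicates 1 to 4, and its second 32.3, 57.7, 33.8 and 36.2. At 2 Gy the first probe read 40.0, 40.6, 29.8 and 28.3 units. At 6 Gy it read 22.2, 41.5, 22.8 and 47.5 units, and at 10 Gy 34.8, 25.5, 26.6 and 20.7. Replicate 2 at 0 Gy was the brightest array and replicate 4 at 10 Gy the dimmest for this probe, and the doses overlapped. All 32 readings of both probes exceeded every negative control probe of their array.

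miR-133a-3p was brightest at 6 Gy before any scaling. Its first probe read 28.0, 40.2, 58.9 and 33.1 units at 0 Gy and 42.9, 46.2, 40.0 and 50.3 at 2 Gy. It read 90.6, 64.8, 26.5 and 70.9 units at 6 Gy, so that 3 of 4 arrays exceeded all of the 0 and 2 Gy arrays and replicate 3 lay below all of them. At 10 Gy it read 39.5, 28.5, 24.8 and 23.2 units. Its second probe was dimmer on every array, between 17.8 and 60.8 units, and also peaked at replicate 1 of 6 Gy.

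miR-133b followed the same arrays. The probe that passed the detection filter read 19.3, 26.6, 38.9 and 22.0 units at 0 Gy and 29.2, 32.5, 24.5 and 33.1 at 2 Gy. It read 56.8, 46.1, 17.1 and 46.0 units at 6 Gy and 28.2, 19.8, 15.9 and 16.1 at 10 Gy. Its other probe ran from 8.44 to 36.2 units, was detected on 7 arrays and was left out of the tested value. Since the mature sequences of miR-133a and miR-133b are nearly identical, the array cannot tell how much of either signal belongs to which name, and their values are not independent results.

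For comparison between doses, signals were scaled by the array's 75th percentile over probes detected throughout, low values were set to a floor of -4.60 on the log2 scale, and probes of a miRNA were averaged. These levels can be compared between arrays for 1 miRNA, not between miRNAs. The unirradiated mean of miR-206 was -3.54 ± 0.29 (SD, n = 4, as for each mean below). It was -3.89 ± 0.25 after 2 Gy, -4.07 ± 0.37 after 6 Gy and -3.87 ± 0.15 after 10 Gy. At 0 Gy its replicates lay at -3.38, -3.33, -3.96 and -3.49, and at 6 Gy at -4.60, -3.88, -4.03 and -3.77. Replicate 3 at 0 Gy stood below the other 3. Replicate 1 at 6 Gy was raised to the floor although both probes were detected there (22.2 and 21.3 units), so its level is an upper bound. From high to low the order was 0, 10, 2 and 6 Gy, and the ranges of each pair of neighbours in this order overlapped.

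The unirradiated mean of miR-133a-3p was -3.82 ± 0.28. It was -3.70 ± 0.29 after 2 Gy, -3.51 ± 0.35 after 6 Gy and -3.99 ± 0.25 after 10 Gy. Its arrays lay at -3.18, -3.44, -4.003 and -3.40 at 6 Gy and at -3.80, -4.13, -4.25 and -3.76 at 10 Gy. miR-133b averaged -4.16 ± 0.27, -4.06 ± 0.23, -3.85 ± 0.34 and -4.31 ± 0.24 at 0, 2, 6 and 10 Gy, with replicate 3 at 10 Gy at the floor. For both names the order from high to low was 6, 2, 0 and 10 Gy, so their highest mean fell at the dose where miR-206 had its lowest. Neighbours in this order overlapped for both.

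**Figure D2:**
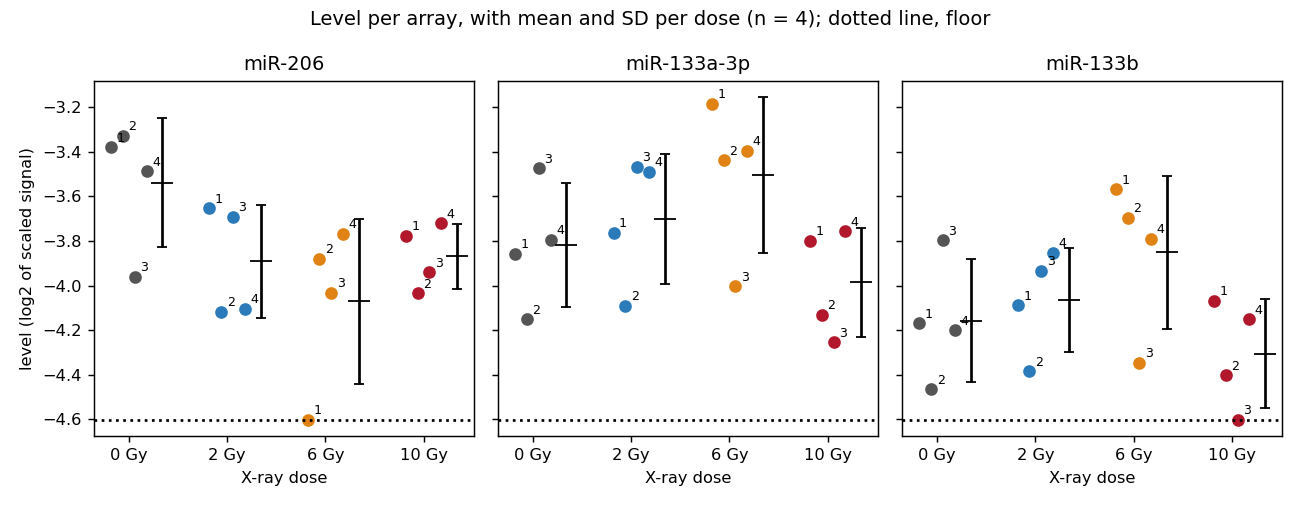
Level of the 3 tested muscle miRNAs (log2 of scaled signal, vertical axis) by X-ray dose, with 1 numbered point per array and the mean ± SD of the 4 arrays beside it; the dotted line is the floor of -4.60. miR-206 has its highest mean at 0 Gy and both miR-133 names have theirs at 6 Gy, with overlap between doses.

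The first comparison asked whether 2 Gy, given on the same slide as 0 Gy, moved the muscle miRNAs. None of the 3 tested members passed limma's adjusted p of 0.05, and 0 had an unadjusted p under 0.05, where 12.7% of the 283 miRNAs passed. miR-206 differed by -0.35 ± 0.19 (SE; 95% interval -0.76 to 0.05; limma adjusted p = 0.186). miR-133a-3p differed by 0.12 (-0.31 to 0.55) and miR-133b by 0.09 (-0.31 to 0.50). The median difference was 0.09 over the 3 members and 0.03 over all miRNAs tested. Without 0 Gy replicate 3 the miR-206 difference was -0.49 (limma adjusted p = 0.0345), in a fit where 49.8% of 317 miRNAs passed, and with scaling over all human probes it was 0.05.

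At 6 Gy the mean of miR-206 lay below, and those of the miR-133 pair above, their means at 0 Gy. miR-206 differed from 0 Gy by -0.53 ± 0.19 (SE; 95% interval -0.94 to -0.13), short of the threshold (limma adjusted p = 0.0568), and both of its probes gave a like value (-0.52 and -0.54). miR-133a-3p differed by 0.31 ± 0.20 (-0.11 to 0.74; adjusted p = 0.223) and miR-133b by 0.31 ± 0.19 (-0.10 to 0.71; 0.213). On 3 of the 4 arrays at 6 Gy each miR-133 name exceeded all 4 arrays at 0 Gy. None of the 3 members passed, 1 had an unadjusted p under 0.05, and 19.4% of all miRNAs passed. The members' median of 0.31 compares with 0.12 over all miRNAs, but it joins a member that was lower with a pair that was higher.

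These values moved with the scaling and with single arrays. Without 0 Gy replicate 3 the miR-206 difference was -0.67 (limma adjusted p = 0.00755), where 58.4% of 317 miRNAs passed. Without 6 Gy replicate 2 it was -0.59 (limma adjusted p = 0.0476), where 27.6% passed. With 1 array left out the miR-133a-3p difference ran from 0.20 (without 6 Gy replicate 1) to 0.48 (without 6 Gy replicate 3). That of miR-133b ran from 0.17 (without 2 Gy replicate 3) to 0.43 (without 0 Gy replicate 3), and none of these passed. The detection filter was rerun in each such fit. Without replicate 3 of 2 Gy or of 6 Gy the other miR-133b probe passed it and was averaged in. The value of 0.17 therefore reflects a changed set of probes as well as the array left out. With scaling over all human probes the difference was 0.73 (0.0210) for miR-133a-3p and 0.69 (0.0191) in the case of miR-133b, and with quantile normalization 0.60 (0.0422) and 0.61 (0.0332), while miR-206 was at -0.15 and -0.31. Under those scalings 64.7% and 44.9% of all miRNAs passed, and the median over all miRNAs moved to 0.52 and 0.22. Dose and slide cannot be told apart in this comparison.

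At 10 Gy all 3 members were below their mean at 0 Gy, and none passed, where 0.353% of all miRNAs passed. miR-206 differed by -0.33 ± 0.19 (SE; 95% interval -0.73 to 0.08; limma adjusted p = 0.314), with 1 of 4 arrays below all arrays at 0 Gy. miR-133a-3p differed by -0.17 (-0.59 to 0.26) and miR-133b by -0.15 (-0.55 to 0.26), and both were slightly above 0 (0.01 to 0.06) with scaling over all human probes, quantile normalization or the normexp background. Without scaling the miR-133a-3p difference was -0.38, and with Agilent's total signal that of miR-133b was -0.66 (limma adjusted p = 0.148). With 1 array left out they ran from -0.28 to -0.05 and from -0.24 to -0.02, nearest to 0 without 0 Gy replicate 3. None of the 3 had an unadjusted p under 0.05. Here too the dose and the slide cannot be told apart. Over all 4 doses together, limma's F test gave adjusted p-values of 0.180 for miR-206 and 0.257 for each miR-133 name, with 0% of all miRNAs passing.

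Between 10 and 6 Gy, on 1 slide, the miR-133 pair had lower means at the higher dose. miR-133a-3p differed by -0.48 ± 0.20 (SE; 95% interval -0.91 to -0.05) and miR-133b by -0.46 ± 0.19 (-0.86 to -0.05), each with a limma adjusted p of 0.321. miR-206 differed by 0.20 (-0.20 to 0.61). Without scaling the miR-133 differences were -0.97 and -0.86, and with Agilent's total signal that of miR-133b was -1.12 (limma adjusted p = 0.176). Overall brightness, the 75th percentile before scaling, ran from 348 to 674 units at 6 Gy and from 286 to 473 at 10 Gy. On these 8 arrays its log2 correlated with the levels at r = 0.72 (miR-133a-3p, exact permutation p = 0.0483) and 0.76 (miR-133b, exact permutation p = 0.0334), and its part in the difference was not tested. None of the 3 passed, 2 had an unadjusted p under 0.05, and 0% of all miRNAs passed. Same-numbered cultures at these doses deviated together, so the 8 arrays were also compared in 4 pairs, a fit chosen after seeing the data. Over all doses, only 5 of 16 arrays correlated best with an array of their own number, so the pairing is uncertain. In pairs miR-133a-3p was lower at 10 Gy by -0.62, -0.69, -0.25 and -0.36, in 4 of 4 pairs, and miR-133b by -0.50, -0.71, -0.25 and -0.36. Both passed in the fit with this replicate block (limma adjusted p = 0.0394 and 0.0399), where 19.4% of all miRNAs passed and 6.71% were lower. With any 1 pair left out neither passed, the adjusted p running from 0.0554 (miR-133a-3p) or 0.0596 (miR-133b) up to 0.145. miR-206 was lower in 1 of 4 pairs and differed by 0.20 ± 0.17 (limma adjusted p = 0.413), and by -0.01 without replicate 1, the array at the floor.

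**Figure D3:**
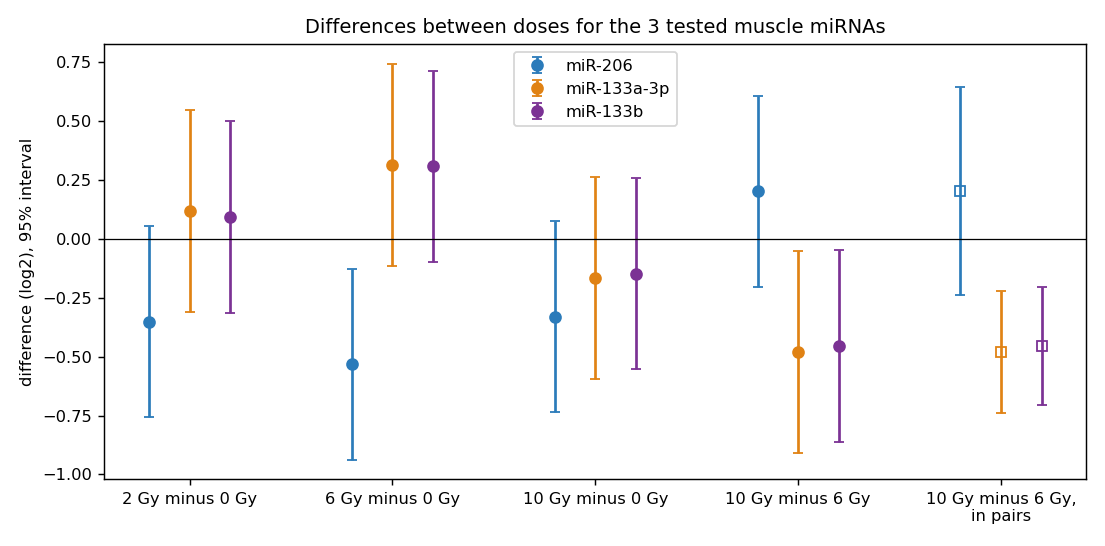
Difference in level (log2, vertical axis) of the 3 tested muscle miRNAs for each comparison of doses, with limma's 95% intervals; circles are the fit of all 16 arrays and open squares the 8 arrays of 6 and 10 Gy in pairs. The miR-206 interval for 6 Gy (-0.94 to -0.13) and the miR-133 intervals between 10 and 6 Gy lie below 0 before adjustment.

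Across arrays miR-133a-3p and miR-133b varied together, and miR-206 showed no such relation with them. Their levels correlated at r = 0.98 over 16 arrays (Spearman's rho 0.96, permutation p = 1e-05 for each, the smallest that 100000 resamples give; adjusted over 9 relations, 9e-05). Within slides r was 0.98 and 0.99, and without the 2 arrays farthest from the median of miR-133a-3p it was 0.98. Since these mature sequences are nearly identical, the r between them is not taken as a separate result. Whether probes of 1 name bind the other miRNA was not tested. miR-206 and miR-133a-3p gave r = -0.32 (permutation p = 0.229, adjusted 0.246) and rho = -0.12 (p = 0.659, adjusted 0.659), with -0.38 and -0.32 within slides and -0.11 without the 2 farthest arrays. miR-206 and miR-133b gave r = -0.35 (permutation p = 0.193, adjusted 0.246) and rho = -0.19 (p = 0.472, adjusted 0.531), with -0.45 and -0.31 within slides and -0.17 without the 2 farthest arrays. All levels of an array share its scaling factor.

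The ratio of 2 members within an array does not depend on scaling. The log2 ratio of miR-133a-3p over miR-133b stayed between 0.26 and 0.47 on all 16 arrays. That of miR-133a-3p over miR-206 averaged -0.28 ± 0.55 without irradiation (SD, n = 4, as for the next values). After 2 Gy it averaged 0.19 ± 0.32, after 6 Gy 0.65 ± 0.77 and after 10 Gy -0.12 ± 0.14. Its highest value, 1.77, was on replicate 1 at 6 Gy, where miR-133a-3p was brightest and miR-206 among its dimmest, and its lowest, -0.82, on replicate 2 at 0 Gy. The 10 Gy arrays held the narrowest range, from -0.31 to -0.02. The arrays of 6 and 10 Gy did not overlap in this ratio, each other pair of doses did, and these ratios were not tested.

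The miR-133 pair also ran against the labelling spike-in, a pair of synthetic RNAs added when the sample RNA was labelled, whose summary signal the scanner software gives as log10. Without irradiation that signal ran from -0.70 to 3.04. It ran from 0.31 to 2.10 after 2 Gy, from -0.70 to 1.79 after 6 Gy and from 1.82 to 2.71 after 10 Gy, and lay in the software's accepted range on 3 of 16 arrays. Both RNAs stood at the lowest value, -0.70, on replicate 3 of 0 Gy and replicate 4 of 6 Gy. On replicate 1 of 2 Gy and of 6 Gy 1 of the pair did, and these summary signals were the next lowest. Correlations without all of these arrays were not computed. For miR-133a-3p r was -0.64 (permutation p = 0.00703, adjusted 0.0211) and rho -0.72 (p = 0.00227, adjusted 0.00681), with -0.58 once the 2 arrays of most distant spike-in were left out. The slide of 0 and 2 Gy alone gave -0.53 (exact permutation p = 0.176). The slide of 6 and 10 Gy alone gave -0.77 (exact permutation p = 0.0155). The spike-in ranges of these doses did not overlap, so there r also holds the difference between the doses. As deviations from dose means over all 16 arrays r was -0.52 for each miR-133 name, which was not tested. The permutations over 16 arrays shuffled across doses and slides, so their p-values also hold differences between doses. For miR-133b r was -0.65 (permutation p = 0.00641, adjusted 0.0211) and rho -0.74 (p = 0.00158, adjusted 0.00681), with -0.63 and -0.70 within slides (exact permutation p = 0.0951 and 0.0445) and -0.59 without the 2 farthest arrays. For miR-206 r was 0.35 (permutation p = 0.186, adjusted 0.246) and rho 0.34 (p = 0.199, adjusted 0.299), with 0.51 and 0.14 within slides and 0.52 without the 2 farthest arrays. In a fit with the spike-in as a covariate, added after seeing the data, the 6 Gy minus 0 Gy difference was 0.17 for both miR-133 names (limma adjusted p = 0.535 and 0.517). The 10 Gy minus 6 Gy differences in that fit were -0.29 and -0.28 (limma adjusted p = 0.841 for each). As the spike-in did not overlap between these doses, that fit cannot separate the spike-in from the dose.

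**Figure D4:**
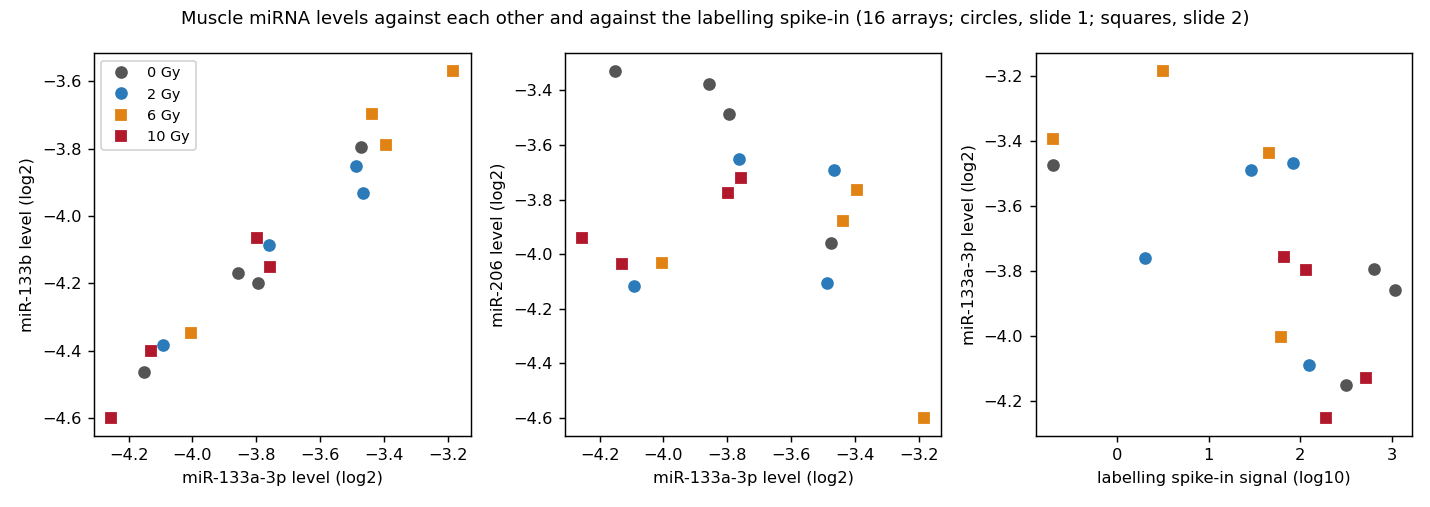
Levels on the 16 arrays (log2 of scaled signal) of miR-133b and of miR-206 against miR-133a-3p, and of miR-133a-3p against the labelling spike-in (log10), coloured by dose; circles are slide 1 and squares slide 2. The miR-133 points lie along a line (r = 0.98), those of miR-206 do not (r = -0.32), and miR-133a-3p is high where the spike-in is low (r = -0.64).

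Outside the members, the miRNAs whose levels ran most like each member's differed between miR-206 and the miR-133 pair. The closest to each miR-133 name was the other (r = 0.98), which the names below leave out. Over the 16 arrays miR-206 ran closest to miR-670-5p (r = 0.98), miR-2278 (0.97), miR-1228-5p (0.96), miR-3148 (0.96) and miR-595 (0.96), against a median r of -0.15 over all other tested miRNAs. Of the non-members, miR-133a-3p ran closest to miR-1236-3p (0.96), miR-33b-3p (0.96), miR-625-3p (0.95), miR-2116-3p (0.95) and miR-18b-3p (0.95), against a median of 0.16. For miR-133b they were miR-1236-3p (0.96), miR-18b-3p (0.95), miR-2116-3p (0.93), miR-33b-3p (0.92) and miR-4274 (0.92), against a median of 0.17, so 4 names were shared with miR-133a-3p. The members were left out of this ranking, and of the further muscle miRNAs only miR-486-5p was tested and could have appeared. These are descriptions over arrays that share dose, slide and scaling.

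Other muscle miRNAs were mostly not detected. Of 10 further names, which include the heart-enriched miR-208 and miR-499 families and miR-486, 6 were on the array and 1 was detected. This was miR-486-5p, which is abundant in both muscle and red blood cells and was detected on all 16 arrays. It differed from 0 Gy by 0.15 at 2 Gy, 0.21 at 6 Gy and 0.31 at 10 Gy and did not pass (limma adjusted p = 0.308, 0.142 and 0.117). Its partners of the red blood cell list, miR-451a, miR-144-3p and miR-144-5p, were detected on no array and miR-16-5p on 4. The summed scaled signal of the 7 striated muscle markers ranged from 0.19 to 0.22 without irradiation. It ranged from 0.16 to 0.22 after 2 Gy, 0.17 to 0.23 after 6 Gy and 0.15 to 0.20 after 10 Gy. miR-1-3p, miR-208a-3p, miR-208b-3p and miR-499a-5p were detected on no array, so 3 of 7 muscle markers carried that sum.

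Markers of blood and liver gave a like picture of partial detection. Of the 6 white blood cell and platelet markers 1, miR-155-5p, was detected, on all 16 arrays. It was higher at 6 Gy than at 0 Gy by 0.31 (limma adjusted p = 0.0407), where 19.4% of all miRNAs passed. Dose and slide cannot be told apart in that comparison. Undetected were miR-142-3p, miR-142-5p, miR-223-3p, miR-150-5p and miR-126-3p. The liver miRNA miR-122-5p, carried in serum, was detected on 4 of 16 arrays, 1 at each dose. The summed scaled signal of the 3 liver and serum markers ranged from 0.04 to 0.13 at 0 Gy and from 0.02 to 0.07 at 6 Gy. The part of serum in the muscle miRNA signal was not tested.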

How the data were processed

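Extracellular RNA of 16 HCT116 cultures was extracted with ISOGEN and 100 ng of it labelled with Cy3 (per the labels' protocols). The authors deposited, for each culture, 1 single-colour Agilent array read with version 11.5.1.1 of Feature Extraction (stated in the file headers). The deposited intensity values are spot brightness from that software, background-subtracted within the array for the processed signal and not scaled between arrays, per the file headers. Spots of a probe (at most 20) were averaged, without controls and outlier flags. Arrays were scaled to the 75th percentile of the 518 probes detected on all arrays and floored at 0.0412 (the median 5th percentile of detected probes). miRNAs with a probe detected on all 4 arrays of a dose were tested (592 probes, 283 miRNAs) with limma 3.58.1 in R 4.3.3 on all 16 arrays. Benjamini-Hochberg adjustment ran over the 283, with a threshold of 0.05. Depth is set by the number of spots and arrays, which limits the precision.

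The members and lists were chosen with earlier results of these data known. Named are the members, listed markers and, per member, the 5 tested miRNAs outside the members most correlated with it. Same-numbered arrays were checked for pairing by correlating deviations from dose means. For 10 and 6 Gy all 4 pairs were above 0.1 (0.23 to 0.72), and for 2, 6 and 10 Gy against 0 Gy 2, 1 and 1 of 4 were. Pairs of 2 and 0 Gy ran from -0.76 to 0.75. Among arrays of other doses, 5 of 16 arrays correlated best with an array of their own number. The pairing rests on the data, as the labels name no shared batch. Correlations were adjusted over 9 relations, of which the 3 with overall array brightness are not reported here over all 16 arrays. Figures used Python 3.11.15 and matplotlib 3.10.9.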

Additional observations from a re-analysis of the deposited data

Results flagged for a closer look

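The second miR-133b probe, left out of the tested value because it was not detected on all 4 arrays of any dose, exceeded all 6 negative control probes on 16 of 16 arrays. It was detected on 7 of them. Its signal peaked on the same array as the probe in use, replicate 1 at 6 Gy. No array stood apart from the others of its dose by Dixon's test among the 12 groups of 4 levels, where chance flags about 1 in 20.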

How the results depend on the processing

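Of 336 member differences under alternatives (1 choice changed or 1 or 2 arrays left out, or 2 doses alone), 319 kept their direction and 17 reversed, and 10 passed the threshold. Those 10 came from fits where 27.6% to 64.7% of all miRNAs passed. Blocks for replicate or slide row and fits of 2 doses alone cannot change a difference. Leaving out an array of another dose acts only through scaling, floor or filter. The count of kept directions is therefore partly fixed in advance. With scaling over all human probes the 10 Gy minus 0 Gy difference was 0.0113 (miR-133a-3p) and 0.0141 (miR-133b), and that of 2 Gy was 0.0538 for miR-206. The same scaling gave 0.73 and 0.69 for the miR-133 names at 6 Gy and an F test adjusted p of 0.0488 for miR-133b, where 36.4% of all miRNAs passed. Quantile normalization gave 0.0148 and 0.0415 at 10 Gy and 0.60 and 0.61 at 6 Gy. With normexp at an offset of 50, near which dim signals lie by construction, miR-133a-3p differed by 0.0635 (10 against 0 Gy), 0.0400 (10 against 6 Gy) and -0.0105 (2 Gy). miR-133b differed by 0.0619, 0.0996 and -0.0201 there and by -0.0377 at 6 Gy, and miR-206 by 0.0170 at 10 Gy. Without scaling miR-206 differed by -0.20 between 10 and 6 Gy. Scaling over all human probes moved the median of all miRNAs at 6 Gy from 0.12 to 0.52.

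With 0 Gy replicate 3 and 2 Gy replicate 2 both left out, a choice made after seeing the data, miR-206 differed by -0.64 at 6 Gy (limma adjusted p = 0.00534) and -0.47 at 10 Gy (0.0380), with an F test adjusted p of 0.0257. In that fit 64.7%, 37.9% and 62.1% of 317 miRNAs passed. miR-133b then differed by 0.43 at 6 Gy (0.0434) and 0.00023 at 10 Gy. Leaving out 1 array at a time, miR-206 ranged from -0.49 to -0.28 at 2 Gy and from -0.67 to -0.36 at 6 Gy, with F test adjusted p-values from 0.0384 to 0.337. miR-133b ranged from -0.0140 (without 2 Gy replicate 3) to 0.21 at 2 Gy, with -0.00953 without 0 Gy replicate 2. The value of -0.0140 includes its second probe, which passed the detection filter once 2 Gy replicate 3 was left out.

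In the 8 arrays of 6 and 10 Gy with the replicate block, also chosen after seeing the data, the differences were -0.48 (miR-133a-3p) and -0.46 (miR-133b), and -0.00604 for miR-206 without replicate 1. The replicate block over all 16 arrays changed no member's call (miR-133a-3p, 10 against 6 Gy, limma adjusted p = 0.196). Calls over all 283 miRNAs numbered 36, 55 and 1 at 2, 6 and 10 Gy against 0 Gy. They numbered 125, 183 and 0 with scaling over all human probes, 71, 127 and 27 with quantile normalization, 68, 75 and 7 with the replicate block, and 0, 0 and 0 without scaling or in fits of 2 doses alone. Leaving out 1 array gave 0 to 158, 0 to 185 and 0 to 92. A fit with no filter on detection was not run, as 69.2% of the 1205 miRNAs lay at the floor on every array. Signal limits miR-133b most, whose probe in use was not detected on 3 of 16 arrays.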
